A study of Drosophila melanogaster with 3 samples.

Results

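Oxidative phosphorylation subunit genes were taken as the nuclear protein-coding genes of Drosophila melanogaster whose symbol begins with ND-, UQCR-, Sdh or ATPsyn, or with COX and a digit. These prefixes picked 88 of the 13945 protein-coding genes annotated on the 6 chromosome arms. The symbols do not all name subunits. Of these, 63 are known to encode subunits of the respiratory complexes and 1 (Sdhaf3) an assembly factor of complex II. The remaining 24 symbols end in L, or in L and a digit, and name copies of a subunit gene (COX4L is named after COX4, for example). These are called copies here.

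The genes were examined in a chromatin immunoprecipitation sequencing experiment (ChIP-seq) on whole embryos aged 0 to 14 h, pooled from males and females. The flies stably carried a transgene for the uncharacterized protein CG17186 with GFP at its C-terminus, and an anti-GFP antibody recovered the DNA, which had been sonicated to 200 to 800 bp. There were 3 biological replicates of this 1 genotype and no other group, and a library named in the labels as a possible control was not analysed here. The labels do not say what drives the transgene or whether the flies kept their own CG17186 gene, and the signal of a whole embryo averages over its tissues.

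Oxidative phosphorylation passes electrons from NADH and succinate through complexes I, II, III and IV of the inner mitochondrial membrane to oxygen. Complexes I, III and IV pump protons as they do so, and complex V, the ATP synthase, uses the proton gradient to make ATP. Most subunits are encoded in the nucleus and imported, and a few core subunits of complexes I, III, IV and V are encoded by the mitochondrial genome, so both genomes contribute to these complexes. In Drosophila many nuclear subunit genes have a copy that is used mainly in the testis.

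CG17186-GFP was found at the start of 36 of the 88 genes (40.9%), and all 36 encode subunits. They made up 36 of the 63 subunit genes (57.1%), against 28.0% of all protein-coding genes (3905 of 13945). None of the 24 copies was bound, and neither was Sdhaf3. A gene was called bound when a peak summit of the authors' reproducible set lay within 500 bp of any of its transcription start sites (TSS). That set is the thresholded list of 3814 peaks that the authors made from all 3 replicates. When a summit counted for no gene but that with the closest TSS, 26 members were bound (29.5%), against 20.2% of all genes. These shares are described and not tested, because genes are not replicates of a condition.

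The longer and more permissive lists held nearly every subunit gene. The list called on the pooled replicates had a summit within 500 bp of 61 of the 63 subunit genes, 5 of the 24 copies and Sdhaf3, together 67 members (76.1%), against 55.2% of all genes. The lists of replicates 1, 2 and 3 reached 64, 61 and 66 members, against 57.6%, 51.9% and 57.3% of all genes. All 3 replicate lists together shared 53 members (60.2%), of which 52 encode subunits, against 42.4% of all genes. Among the 3814 strongest peaks of every replicate there were 25 members (28.4%), all of them subunit genes, against 19.3% of all genes. In no list at all were 15 of the 88 members, against 4253 of all 13945 genes. The 15 were 14 copies and ND-B16.6, which encodes an accessory subunit of complex I.

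**Figure D1:**
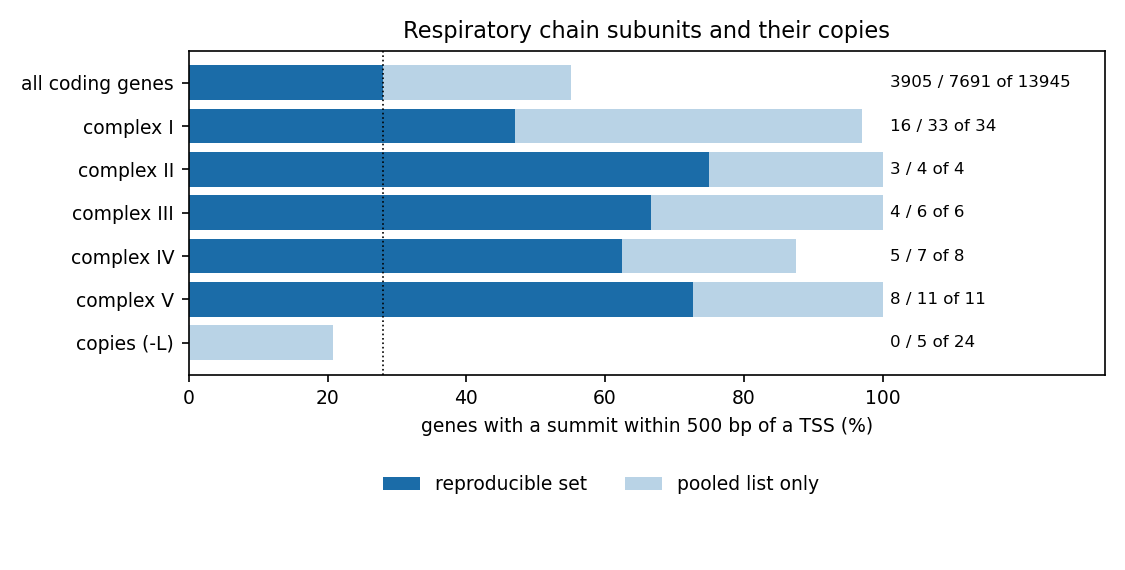
Percentage of genes (horizontal axis) with a summit within 500 bp of a TSS, for all coding genes, the subunit genes of each complex and the copies. Dark bars show the reproducible set and light bars the further genes of the pooled list, the figures at the right give genes in the reproducible set, in the pooled list and in all, and the dotted line marks the 28.0% of all genes that were bound; all 5 complexes lie above it and the copies have no dark bar.

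Each of the 5 complexes had bound genes. They were 16 of 34 subunit genes of complex I, 3 of 4 of complex II, 4 of 6 of complex III, 5 of 8 of complex IV and 8 of 11 of complex V. In the pooled list these counts were 33, 4, 6, 7 and 11. Of all coding genes, 28.0% were bound and 55.2% were in the pooled list. The peak height, given here as the signal the authors deposited for the pooled replicates on the scale of their peak caller, had a median of 180.0 over the bound members, with quartiles of 145.9 and 235.9. The median over all bound genes was 179.3. These medians lay close together. Of the 36, 2 were within the 300 highest of the 3814 peaks, 3 within the 500 highest and 10 within the 1000 highest. Of all 3905 bound genes, 367, 613 and 1196 were within these limits, so members were not more frequent there.

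To set replicates side by side, each signal was divided by the median of that replicate over the 3758 reproducible peaks found in all 3. A relative signal of 1 is therefore that of the median shared peak. The median relative signal was 0.974 over the bound members and 1.03 over all bound genes. All 36 bound members were in each of the 3 replicate lists. Of these, 12 were above 1 in every replicate and 11 were below 1 in every replicate. Their coefficient of variation over replicates ran from 5.30% to 51.4%, with a median of 16.1%, against 19.4% over all bound genes. The highest was at ND-MNLL, where the peak used in replicate 3 did not overlap those of the other replicates. That value is therefore not the spread of a single peak. With 3 replicates an exact sign-flip permutation test cannot give a p below 0.25, so the spread (SD) is given in its place.

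Complex I, the NADH dehydrogenase, held the strongest member. ND-B14.7 encodes an accessory subunit of the membrane arm (FBgn0034576, chromosome 2R, 21025078 to 21026086 in dm6). Its peak spanned 21024593 to 21025592, with the summit 1 bp from the TSS and no other gene start within 500 bp. The signal was 3180, 2009 and 3651 in replicates 1, 2 and 3, where the peak ranked 12, 13 and 9. The relative signal was 49.1, 40.7 and 55.7, with a mean of 48.5 ± 7.53 (SD, n = 3). All 3 values lay far above those of any other member, and the summit of each replicate lay within 5 bp of the TSS. In the pooled list the signal was 8660, which was 20.9 times that of the next member, whereas the other 35 bound members spanned 3.65-fold.

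**Figure D2:**
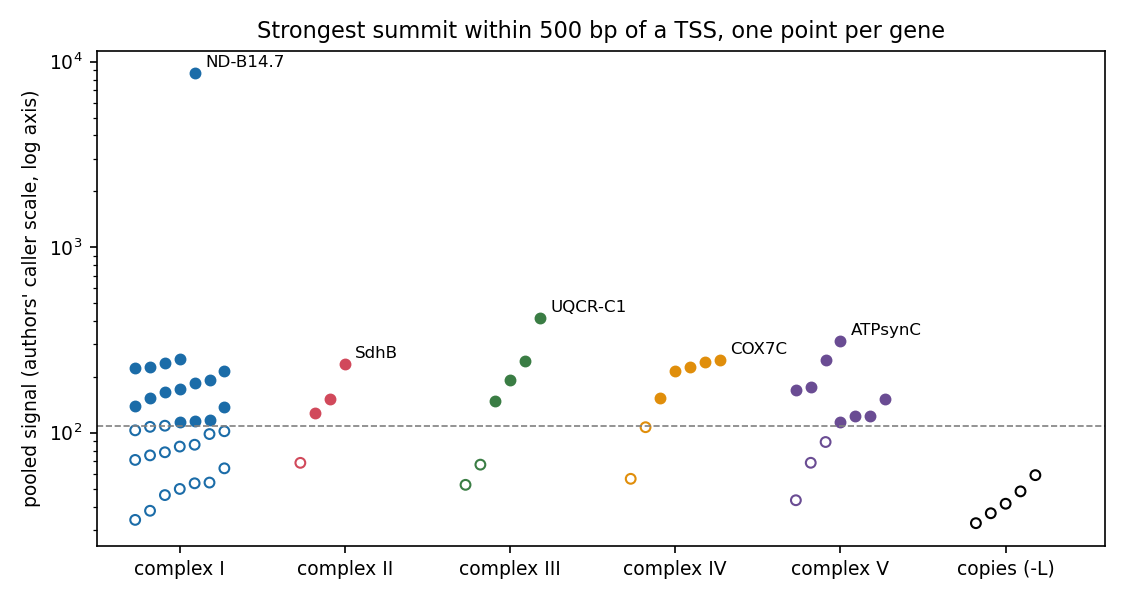
Pooled signal of the strongest summit within 500 bp of a TSS (log axis, scale of the authors' caller), with 1 point per gene, by complex. Filled points are genes in the reproducible set, open points genes in the pooled list only, and the dashed line is the lowest signal of the reproducible set (109.3); ND-B14.7 stands alone at 8660 and the 5 copies in the pooled list lie between 32.5 and 59.1.

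Of the 7 core subunit genes of complex I in the rule 28.6% were bound, close to the 28.0% of all coding genes. The bound core genes were ND-51 and ND-24. They encode the flavoprotein that binds NADH and its iron-sulfur partner, both in the tip of the matrix arm. ND-51 had relative signals of 1.54, 1.18 and 1.39 (1.37 ± 0.181, SD, n = 3), all above the median shared peak. ND-24 had a pooled signal of 222.7 and a relative signal of 1.27 ± 0.0967 (SD, n = 3). The other core genes had pooled signals under the lowest reproducible peak of 109.3. ND-20 and ND-23, which encode iron-sulfur proteins on the path to ubiquinone, had 101.9 and 75.5. ND-30 had 84.2, ND-49 had 38.0, and ND-75, which encodes the largest iron-sulfur subunit, had 53.9. ND-49, on chromosome 4, was listed in replicate 1 only.

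Among the 27 accessory subunit genes of complex I, 14 were bound (51.9%), against 28.0% of all coding genes. Next to ND-B14.7 in pooled signal came ND-ASHI of the membrane arm (250.3), with relative signals of 1.36, 1.24 and 1.35 (1.32 ± 0.0697, SD, n = 3), the smallest spread of any bound member relative to its mean. ND-MWFE, also of the membrane arm, had 1.30, 1.78 and 0.987 (1.36 ± 0.401), so that its replicates fell on both sides of the median shared peak. The means of ND-ASHI and ND-MWFE differed by less than the SD of ND-MWFE. The pooled signal was 214.7 for ND-B17.2, 191.7 for ND-B18, 184.4 for ND-15 and 172.5 for ND-ACP. ND-ACP encodes the mitochondrial acyl carrier protein, which also serves fatty acid synthesis. ND-B8, ND-18, ND-SGDH and ND-13B lay between 137.5 and 165.7, and ND-B14.5A, ND-MNLL and ND-PDSW between 114.8 and 117.5. The last 3 were close to the weakest peak of the set.

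The other 13 accessory genes of complex I were not bound, and 12 of them were in the pooled list. ND-B22, ND-42, ND-39 and ND-B17 came closest, with pooled signals of 109.1, 107.6, 103.0 and 98.4, just under the 109.3 of the weakest reproducible peak. In ND-B17 the replicates were far apart, with signals of 34.7, 16.9 and 65.8. ND-13A, ND-B12, ND-B14, ND-B15 and ND-MLRQ lay between 53.4 and 86.2, and ND-AGGG, ND-B14.5B and ND-19 between 33.9 and 49.8. ND-B14.5B had a stronger reproducible summit of 596.1 at +807 bp, outside the 500 bp window. ND-B16.6 was the only subunit gene without a summit in any list.

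Complex II, succinate dehydrogenase, also belongs to the citrate cycle. SdhB, its iron-sulfur subunit, had relative signals of 1.51, 1.36 and 1.04 (1.30 ± 0.239, SD, n = 3), all above the median shared peak, and its summit lay at -1 bp. The flavoprotein gene SdhA and the membrane anchor gene SdhC were bound more weakly, at 127.5 and 151.3 in pooled signal. SdhA was below the median shared peak in every replicate (0.631 ± 0.141, SD, n = 3). The other anchor gene, SdhD, reached 68.8 in the pooled list and was absent from the list of replicate 2. Sdhaf3 had 67.2.

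Complex III, the cytochrome bc1 complex, held the second highest member. UQCR-C1 encodes a core protein on the matrix side (chromosome 3R, summit 14890227, -4 bp). Its relative signals were 2.51, 2.36 and 2.23 (2.36 ± 0.139, SD, n = 3), and its peak ranked 232, 301 and 296 in the 3 replicates. UQCR-C2, the other core protein gene, had 1.41, 1.16 and 1.46 (1.34 ± 0.158), below UQCR-C1 in every replicate. UQCR-14 and UQCR-6.4, which encode small subunits, had pooled signals of 192.7 and 148.1. UQCR-Q and UQCR-11 were not bound, at 67.3 and 52.4.

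In complex IV, cytochrome c oxidase, the nuclear subunits surround a catalytic core that the mitochondrial genome encodes. COX7B had relative signals of 1.53, 1.43 and 1.24 (1.40 ± 0.145, SD, n = 3) and COX5A had 1.51, 1.16 and 1.27 (1.31 ± 0.180). Both were above the median shared peak in every replicate. COX7C had 1.11, 1.42 and 1.55 (1.36 ± 0.226), from a summit at +294 bp; with a window of 250 bp its relative signal was 0.389. COX6B and COX5B followed with pooled signals of 214.8 and 153.7. COX8 lay just under the weakest reproducible peak at 107.1, with replicate signals of 53.1, 51.6 and 21.9, and was among the 3814 strongest peaks of replicates 1 and 2. COX4 had 56.4, and COX7A had no pooled summit and was listed at 15.5 in replicate 3 only.

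In complex V, ATPsynC was the strongest. It encodes the subunit of the rotating ring in the membrane, and its relative signals were 2.08, 1.71 and 1.82 (1.87 ± 0.191, SD, n = 3), all above those of the next gene. ATPsynF, of the membrane part, had 1.27, 1.51 and 1.44 (1.41 ± 0.121). ATPsynE, also of the membrane part, had a pooled signal of 152.3, while ATPsynG was not bound at 43.3. Of the F1 part in this rule, the catalytic subunit gene ATPsynbeta and the central stalk gene ATPsyngamma were bound at 175.6 and 113.6. ATPsyndelta, also of the central stalk, was not, at 68.9. Of the stator, ATPsynB, ATPsynO and ATPsynCF6 were bound at 169.0, 123.3 and 123.2, and ATPsynD was not, at 89.1. ATPsyngamma had the lowest signal of all bound members.

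Only the top of this order stood clear of the replicate spread. The drops in mean relative signal from ND-B14.7 to UQCR-C1, from UQCR-C1 to ATPsynC and from ATPsynC to ATPsynF were 46.1, 0.492 and 0.466, each more than the larger SD of the pair. Among the 9 genes from ATPsynF down to SdhB no neighbours differed by more than the larger SD. Across all members, 25 of the 36 bound genes were among the 3814 strongest peaks of all 3 replicates, 8 of exactly 2 and 3 of exactly 1. Those 3 were ND-PDSW, SdhA and ATPsyngamma. Of the members that were not bound, 8 were among the strongest peaks of at least 1 replicate and none of all 3.

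**Figure D3:**
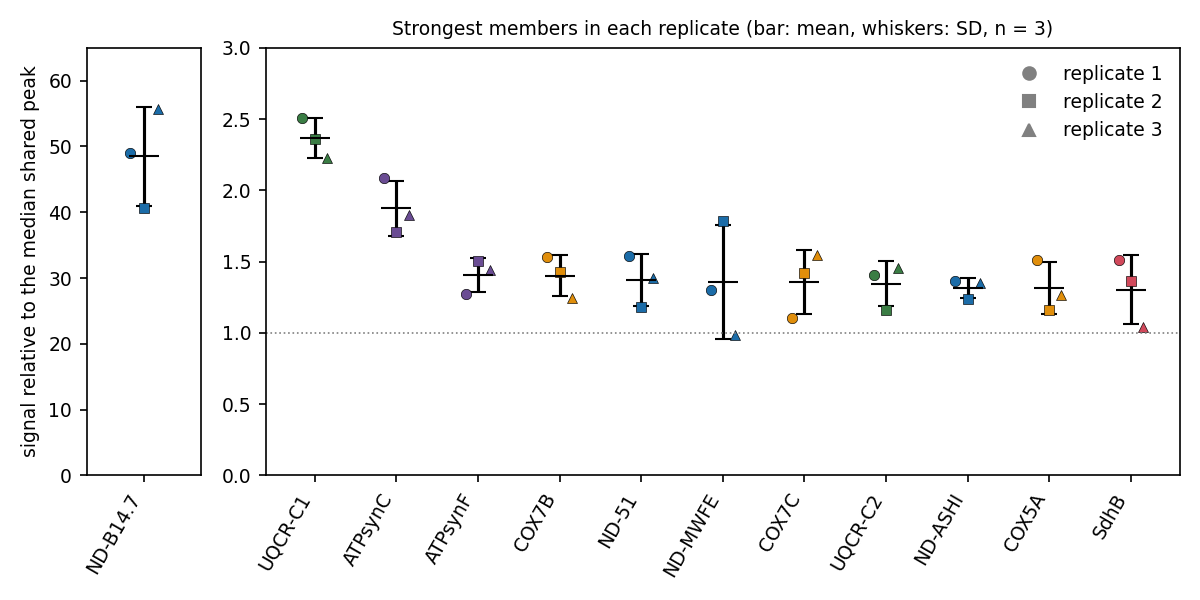
Relative signal (vertical axis, signal divided by the replicate's median over shared reproducible peaks) of the 12 members with the highest pooled signal, with ND-B14.7 on its own axis. Symbols are the 3 replicates, long bars the mean and whiskers the SD; UQCR-C1 and ATPsynC lie above the other 9 genes of the right panel in every replicate, except that ATPsynC (1.71) is under ND-MWFE (1.78) in replicate 2.

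As a group, fewer copies had a summit than the genes they are named after. The 24 copies are named after 21 subunit genes, of which 13 were bound and 20 were in the pooled list. Of the copies, none was bound, 5 were in the pooled list and none was in all 3 replicate lists. Over all coding genes these shares were 28.0%, 55.2% and 42.4%. The 5 copies in the pooled list were COX4L (59.1), ND-B14.5AL (48.3), UQCR-6.4L (41.4), SdhBL (36.8) and ATPsynbetaL (32.5). ATPsynbetaL compares with 175.6 for ATPsynbeta, and SdhBL with 235.2 for SdhB. COX4L was an exception, since COX4 itself reached only 56.4. So were COX7AL and COX7AL2, which were in 2 replicate lists each, while COX7A was in 1. ATPsynepsilonL was likewise in 2 replicate lists and sun, after which it is named, in 1. In the pooled list, however, sun had 66.5 and ATPsynepsilonL was absent. COX7AL2 had a reproducible summit of 376.3 at -599 bp, the only copy with any within 1000 bp.

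Most summits at bound members lay just upstream of the TSS. Of the 36, 29 were upstream and 7 downstream, with a median position of -42.5 bp, where negative values are upstream. Over all bound genes the median was -75 bp and 86.8% were upstream. Within 100 bp of the TSS lay 26 member summits (72.2%), against 56.8% over all bound genes. The farthest inside the window was ND-18 at -318 bp. The summit moved by a median of 51 bp between the replicate lists, and by 50 bp or less in 17 members. It moved by more than 150 bp in 3 members. ATPsynbeta had its strongest summit at -478 bp in replicate 2 and at 6 and -16 bp in the others. ND-MNLL had it at 281 bp in replicate 3 and at -178 and -179 bp in the others, and ND-51 at -7, -115 and -162 bp. At ATPsynbeta and ND-MNLL the peak of the deviating replicate did not overlap the others, so different peaks were compared there.

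**Figure D4:**
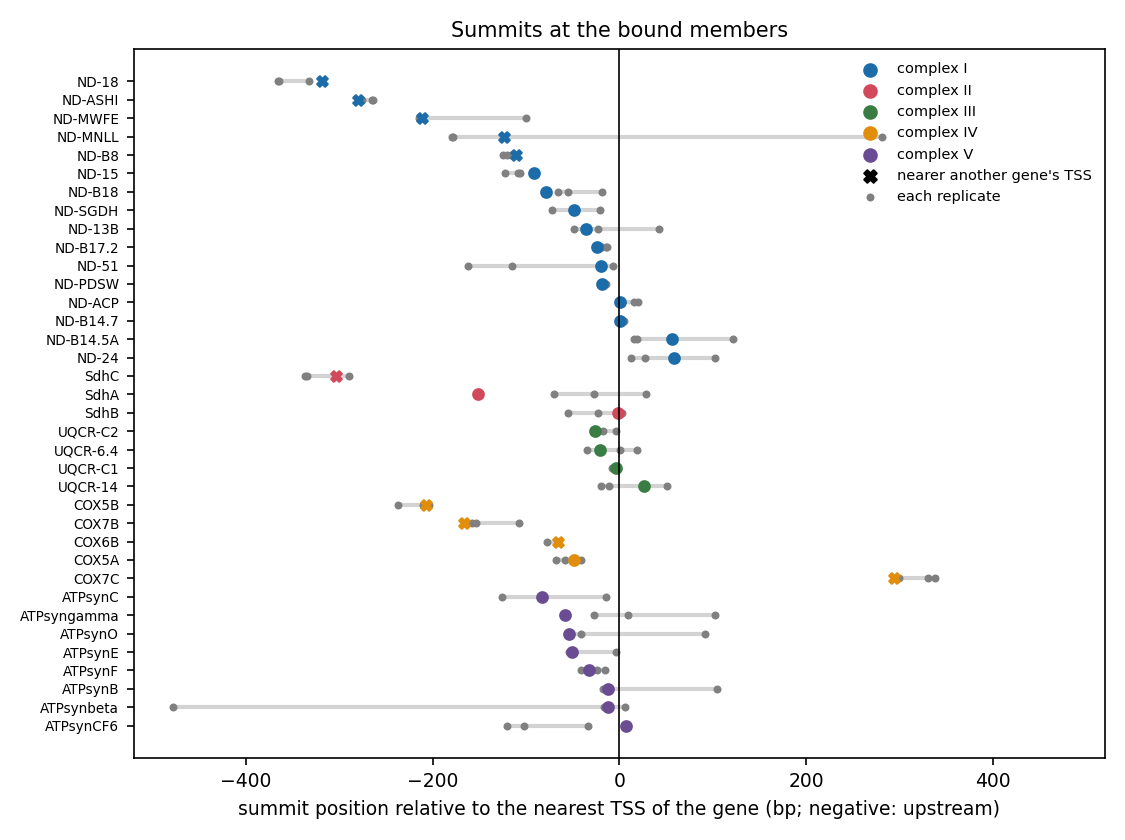
Position of the summit relative to the nearest TSS of the gene (bp, negative upstream) for the 36 bound members, grouped by complex. Large symbols are the reproducible set, with crosses where another gene's TSS is nearer, and small grey points joined by a line are the 3 replicates; 29 of 36 large symbols lie to the left of the TSS.

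Many of these summits lay near more than a single gene start. At 24 of the 36 bound members (66.7%) the summit was also within 500 bp of the TSS of another coding gene, against 62.5% of all bound genes. For 10 of the 36 the other TSS was nearer, a similar share to the 1094 of all 3905 bound genes. The signal at such a summit cannot be assigned to either gene. In complex V the member's own TSS was the nearest for all 8 bound genes, and in complex IV for 1 of 5, COX5A, which shares its summit with glo, a gene for an RNA-binding protein. COX7C shares its summit with oys, COX7B with the exocyst gene Sec3, and ND-MWFE with the peptidase gene TppII, and in each of these the neighbour was nearer. The summit at ND-ASHI lay at -280 bp from its TSS and at -242 bp from that of Fum1, which encodes fumarase of the citrate cycle. UQCR-C1 shares its summit with the cyclin gene CycC, ATPsynF with CG3548 and ND-51 with CG13994. ND-B14.7, ATPsynC, UQCR-C2 and SdhB were the only coding genes at theirs among the 12 strongest.

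The share bound also varied with gene arrangement. Over all coding genes, those arranged head to head, with divergent outermost starts at most 1000 bp apart, were bound in 51.8% of 4648 cases, against 16.1% of the 9297 others. Of the 63 subunit genes 33 (52.4%) were head to head, against 33.3% of all genes. Bound were 19 of these 33 (57.6%) and 17 of the 30 not head to head (56.7%). The share bound was thus nearly the same in both arrangements among subunit genes, and above the 16.1% of all genes where there was no divergent neighbour. Of the 24 copies 4 were head to head, and none of these was bound.

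The reference sequence around the summits showed no single word that most members share. The windows below are taken from the Release 6 reference genome of RefSeq (dm6), 50 bp to either side of the summit and shortened where they ran into exons, and are written 5′ to 3′ on the strand of the gene. Capitals mark the words searched for. The first 3 hold the E-box CAGCTG, 1 of them at the strongest member printed. The next 2 hold TATCGATA, the word of the promoter factor DREF, and COX6B holds the promoter motif 7, CANCNCTA. ATPsynC and ND-ASHI, the members next in pooled signal after UQCR-C1, hold none of the 11 words.
UQCR-C1, chr3R:14890191-14890245, plus strand: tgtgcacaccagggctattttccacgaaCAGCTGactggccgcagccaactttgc
ND-51, chr2L:6062743-6062827, minus strand: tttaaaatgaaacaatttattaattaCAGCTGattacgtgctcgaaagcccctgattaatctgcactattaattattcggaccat
ND-PDSW, chr2L:3466098-3466171, plus strand: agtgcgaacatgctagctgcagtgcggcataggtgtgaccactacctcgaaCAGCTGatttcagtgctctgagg
ND-15, chr2L:114585-114685, plus strand: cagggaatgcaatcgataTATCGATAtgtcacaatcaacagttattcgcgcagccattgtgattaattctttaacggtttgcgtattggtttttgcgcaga
SdhC, chr3R:11210102-11210202, minus strand: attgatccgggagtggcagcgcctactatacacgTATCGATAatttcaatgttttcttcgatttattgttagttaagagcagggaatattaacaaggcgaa
COX6B, chrX:19744351-19744445, minus strand: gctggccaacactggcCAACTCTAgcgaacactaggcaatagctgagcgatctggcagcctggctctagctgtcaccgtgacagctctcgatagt
ATPsynC, chr3R:31219663-31219763, minus strand: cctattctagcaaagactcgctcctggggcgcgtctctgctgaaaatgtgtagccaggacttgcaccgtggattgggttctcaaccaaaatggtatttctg
ND-ASHI, chrX:6679348-6679448, minus strand: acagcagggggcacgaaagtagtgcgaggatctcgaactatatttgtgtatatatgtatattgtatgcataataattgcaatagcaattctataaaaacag

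Of the 36 member summits, 19 (52.8%) had at least 1 of the 11 words within 50 bp on either strand, against 32.6% of all 3814 reproducible summits. The 11 words include ATCGATAG and AACAGCAC, which were taken from these same peaks, so the share of all summits is not independent of the choice. Member summits all lie within 500 bp of a TSS by definition, whereas the 3814 were not limited to such summits. Shares of all summits, here and below, therefore differ from those of members in position as well, and the part of position was not tested. CAGCTG was the most frequent, at 7 summits (19.4%) against 8.39% of all. Besides UQCR-C1, ND-51 and ND-PDSW these were ND-B14.7, UQCR-C2, ND-B14.5A and ND-B18. CANCNCTA was at 5 (13.9%), against 9.31%, and TATCGATA at 4 (11.1%), against 7.94%. The overlapping word ATCGATAG was at 1 (2.78%), ATPsynE, against 8.15%. It was taken from all peaks of these same data, so its share of all summits was raised by that choice. GGTCACACT, the word of the factor M1BP, was at 3 (8.33%), UQCR-6.4, ND-ACP and ND-SGDH, against 4.93%. CAGGGCTG, of the factor ZIPIC, was at 1 (2.78%) against 2.36%. TTACATAA was at 1 (2.78%), ND-MNLL, against 0.708%, and TTATATAA, TTACGTAA and CCGGAAGT were at none, against 0.524%, 0.157% and 0.288%. Median GC content within 50 bp of the summit was 40.1% at members and 39.6% over all summits.

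AACAGCAC, a word taken from the strongest peaks of these same data, was at no member summit, against 1.97% of all summits. It was exact at 19 of the 25 strongest summits and present with at most 1 mismatch at 92.0% of them, against 11.4% of all summits. Among members 3 had it with 1 mismatch (8.33%), namely ND-B14.7, which ranks 12, ND-SGDH, which ranks 2633, and ND-13B, which ranks 2687. UQCR-C1 differed from it by at least 2 bases and ATPsynC by at least 3. Since ND-B14.7 is itself among the 25 summits, its match is part of that count.

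In promoters, taken as 250 bp before to 50 bp after the outermost TSS, GGTCACACT was found in 14 of the 63 subunit genes (22.2%), against 6.05% of all promoters and 12.8% of those of bound genes. Of the 14 genes 9 were bound and 5 were not, and among them were ATPsynC, COX5A, COX7B and ND-MWFE. CAGCTG was in 19 (30.2%), against 17.7% and 23.8%, CANCNCTA in 16 (25.4%), against 15.6% and 26.7%, and TATCGATA in 9 (14.3%), against 9.36% and 19.3%. Of the 24 copies 1 held GGTCACACT, which is near the 6.05% of all promoters. A match says that these letters are present and not that a factor binds there.

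By chromosome arm, 8 of 12 subunit genes on X were bound, against 29.6% of all coding genes there. The counts were 6 of 12 on 2L against 25.6%, 7 of 11 on 2R against 28.4%, and 6 of 13 on 3L against 26.5%. On 3R they were 8 of 13 against 29.9%, and on chromosome 4 they were 1 of 2, ATPsynbeta, against 18.8%. Each arm thus held at least 1 bound subunit gene.

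Respiration genes outside the symbol rule were read from 5 written lists, in which 41 of 42 symbols matched the annotation. Of the 41, 24 were bound (28.0% of all coding genes were). With the nearest TSS only, 19 were bound, against 20.2% of all coding genes. Of 9 genes for further subunits and cytochrome c, 5 were bound. The strongest was blw, the alpha subunit of ATP synthase and partner of ATPsynbeta, with relative signals of 2.86, 3.56 and 2.80, and a pooled signal of 545.6 against 175.6 for ATPsynbeta. Both cytochrome c genes were bound, Cyt-c-d at 318.6 and Cyt-c-p at 307.7, as were ox (258.3) of complex III and levy (242.3) of complex IV. At Cyt-c-d, ox and levy the TSS of another coding gene was nearer to the summit, while blw and Cyt-c-p held the nearest TSS at theirs. The signals at Cyt-c-d, ox and levy thus cannot be assigned to these genes. The iron-sulfur protein gene RFeSP and Cyt-c1 of complex III, cype of complex IV and sun of complex V were in the pooled list only, between 65.6 and 79.0. With these genes added, the nuclear genes for electron carriers of complex III were without a reproducible summit. The highest signals of the complex were at UQCR-C1 and then ox, both at summits shared with another coding gene and so not assignable to them.

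In the citrate cycle and pyruvate dehydrogenase list 12 of 17 genes were bound, where 28.0% of all coding genes were. They were led by the aconitase gene mAcon1 (406.1), the citrate synthase gene kdn (344.2) and the isocitrate dehydrogenase subunit gene Idh3b (272.3), followed by Fum1 (250.3, at the summit it shares with ND-ASHI). The other isocitrate dehydrogenase subunit genes, Idh3a and Idh3g, had 239.6 and 236.5. The rest were Ogdh (224.5), Scsalpha1 (180.3), muc (175.8), Pdhb (156.4), Mdh2 (126.7) and ScsbetaA (113.3). The summits at mAcon1, Idh3a, Idh3g, Pdhb and Mdh2 were also within 500 bp of the TSS of another coding gene. With the nearest TSS only, 10 of the 17 were bound, against 20.2% of all coding genes. Of 3 assembly factor genes CIA30 was bound (393.5). Of 5 genes for carriers and the outer membrane pore, porin (123.8) and Mpcp2 (126.3) were bound. Of 7 genes for regulators of mitochondrial genes, 4 were bound, namely srl (393.3), which encodes the fly PGC-1 coactivator, ewg (237.5), mTTF (137.2) and Ets97D (111.1). CIA30 and ewg also shared their summits with another coding gene.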

How the data were processed

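Per the read-me tables deposited with the samples, the authors called a relaxed peak list on each replicate and on the pooled replicates, and thresholded these by the irreproducible discovery rate (IDR) into the reproducible set. Which aligner and caller, in which versions, and what IDR threshold were used is not given in the sources used here. Each peak's height is the signal the authors deposited in column 7, on the scale of that caller. No read counts were available here, so depth is unknown. Only the dm6 lists were used, and the dm3 lists were not.

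Peaks were matched to TSSs of the Ensembl 115 annotation (FlyBase 6.54) with Python 3.11.15 and pandas 2.3.3, by summit and 1-based, keeping the strongest summit per gene. The reproducible set is the strongest part of the pooled list, so overlap between lists is partly built in. ND-MNLL ends in L but is a subunit and was counted as such. Matching was tested on simulated peaks. Exon sequence beyond 15 bases was trimmed from each side of printed windows.

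The members, lists and words were chosen with earlier results of these data known. Values in every replicate were given for the 12 members with the highest signal and for the strongest of each complex; other bound members have their pooled signal or its range. Neighbouring genes were named only at those 12 members or from the written lists.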

Additional observations from a re-analysis of the deposited data

How the results depend on the processing

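Of 219 alternative values, 157 stayed within the limits used (1.5 times for a count, the replicate SD for a signal, the binomial interval for a share of summits) and 62 moved, of which 46 concern single genes, complexes or copies. The 36 bound members became 33 with a window of 250 bp, 38 with 1000 bp, 26 with the nearest TSS only and 36 with the outermost TSS only. The share of all genes in these settings was 24.7%, 30.4%, 20.2% and 26.4%. The members became 21 with the stronger 50% of the reproducible set (15.6% of all genes) and 67 with the whole pooled list (55.2%). With the whole lists of replicates 1, 2 and 3 they became 64, 61 and 66, against 57.6%, 51.9% and 57.3% of all genes. Counted with their copies, the 5 complexes with a bound share above that of all genes became 3 with the whole list of replicate 2, and 4 with the nearest TSS only, the stronger 50% of the set, the pooled list, the strongest peaks of replicates 1 or 3 and the whole list of replicate 3. With the nearest TSS only, complex IV fell below all genes, with 1 of 8 subunit genes (12.5%) against 20.2%. With a window of 250 bp the relative signal of COX7C became 0.389 and that of ND-ASHI 0.917, both below that of the median shared peak. The 24 bound genes of the other respiration lists became 38 with the pooled list and 37 with the list of replicate 1, against 55.2% and 57.6% of all genes. The cause was not tested beyond the larger number of peaks in these lists. The median relative signal, 0.974 and so just under 1, became 3.31 when signals were divided by the median of the whole replicate list and 1.22 when divided by that over coding genes listed in all 3. Leaving out each replicate in turn gave 0.968 to 1.07, the highest without replicate 2. The 25 members among the strongest peaks of every replicate became 27 to 29. No paired analysis was possible because there was only 1 group. Without read counts, a gene missing from a list was not detectable at an unknown depth, which is not the same as absent.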
